A study of Mus musculus with 103 samples.

Results

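The genes described here make prostaglandin E2 (PGE2), receive it and break it down: Ptgs1, Ptgs2, Ptges, Ptges2, Ptges3, Ptger1, Ptger2, Ptger3, Ptger4 and Hpgd. They were taken by symbol, as the genes of 1 pathway, with earlier results of these data known. All 10 were present, 1 entry each, among the 43283 genes with an Ensembl ID in the table of bulk libraries, and in the table of single-cell wells. Transcripts of muscle stem cells from untreated C57BL/6 mice were sequenced at several ages, with no genetic change stated for any group. Bulk libraries, each made from 5000 to 10000 cells, came from 3 young mice aged 3 months, 2 middle-aged ones of 12 and 13 months and 3 old ones aged 24 months. A description field gives 2 months for the young bulk libraries instead. Single-cell wells came from 1 young mouse (3 months, 64 wells) and 1 old mouse (24 months, 31 wells), so wells give no replicates of an age. The source is named as muscle stem cells and the design text speaks of myoblasts, and the labels describe a culture step without saying on which side of it RNA was taken.

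PGE2 is a lipid signal made on demand. Phospholipases free arachidonic acid from membranes, cyclooxygenases turn it into prostaglandin H2, and PGE2 synthases finish the conversion. The hormone leaves the cell and binds 4 G-protein-coupled receptors, EP1 to EP4, until a transporter takes it up and a dehydrogenase inactivates it. In muscle, PGE2 is known to rise after injury and to act on muscle stem cells through the EP4 receptor.

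The promoters of 3 genes are shown because these genes carry the patterns described further on. Ptges3 was by far the most abundant of the 10. In Ptgs1 and Hpgd alone, both middle-aged libraries lay above all old ones. Each promoter runs from 250 bases before to 50 bases after the RefSeq start (build GRCm38.p6), 5′ to 3′ on the gene's strand. Of the 10 genes, 9 had an entry. Capitals mark matches, on either strand, to a TATA box (TATAAA) or a GC box (GGGCGG).
Ptges3 (chr10:128058732-128059031, plus strand): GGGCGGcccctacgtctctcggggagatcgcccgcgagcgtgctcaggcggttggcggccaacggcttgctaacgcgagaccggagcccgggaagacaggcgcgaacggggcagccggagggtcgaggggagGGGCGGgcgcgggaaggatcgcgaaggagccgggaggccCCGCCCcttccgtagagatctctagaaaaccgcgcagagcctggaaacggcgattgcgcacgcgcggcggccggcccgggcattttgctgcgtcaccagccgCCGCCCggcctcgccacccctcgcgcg
Ptgs1 (chr2:36230176-36230475, plus strand): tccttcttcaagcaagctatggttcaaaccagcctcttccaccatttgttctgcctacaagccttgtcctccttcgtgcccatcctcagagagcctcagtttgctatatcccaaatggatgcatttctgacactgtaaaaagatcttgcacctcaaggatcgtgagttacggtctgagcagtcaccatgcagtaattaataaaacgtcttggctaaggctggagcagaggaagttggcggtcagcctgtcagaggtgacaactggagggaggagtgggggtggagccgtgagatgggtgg
Hpgd (chr8:56294302-56294601, plus strand): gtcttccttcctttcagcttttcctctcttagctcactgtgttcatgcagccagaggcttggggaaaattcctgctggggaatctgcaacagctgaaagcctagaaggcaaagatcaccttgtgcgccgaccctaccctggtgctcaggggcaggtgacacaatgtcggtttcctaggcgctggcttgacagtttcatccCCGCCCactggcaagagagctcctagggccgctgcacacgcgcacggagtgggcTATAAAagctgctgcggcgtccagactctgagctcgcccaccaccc
The Ptges3 window held 4 GC boxes, no TATA box and 46 CpG dinucleotides, which put its CpG count at percentile 98.4 of 32851 promoters. The Hpgd window held 1 GC box, 1 match to the TATA box and 12 CpG. That TATA match began after the RefSeq start, at position 5. The GENCODE start of the gene, 56294585, lies further downstream in the window, so the match comes before that start. The Ptgs1 window held neither motif and 6 CpG. A GC box is found in 35.7% of all promoters of this length and a TATA box in 13.6%. The full cAMP response element (TGACGTCA), present in 1.79% of promoters, matched in none of the 9 windows. These are letter matches only.

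The values are TPM, a share of each library corrected for transcript length, and read depth cannot be recovered from them. Bulk libraries listed 12849 to 17114 genes at 1 TPM or more, and mitochondrially encoded transcripts took 32.7% to 46.5% of their TPM. Values near the floor were unstable. Of 14862 tested genes with a mean between 1 and 10 TPM, 88.4% had a 0 in some library, and this band held 8 of the 10 PGE2 genes. The 10 markers of muscle stem cells were above 0 in all 8 libraries, with sums of 2193 to 2626 TPM in young, 1747 to 2322 in middle-aged and 1419 to 2146 in old libraries. Markers of other cells varied with age too. Schwann cell markers summed to 86.3 to 169 TPM in young libraries, 194 to 402 in middle-aged and 456 to 1458 in old. Tenocyte markers summed to 15.2 to 29.1, 72.5 to 98.5 and 68.7 to 88 TPM in the same order. Sums over all 8 libraries ran from 803 to 1309 TPM for fibroblast markers, 435 to 901 for smooth muscle and pericyte markers and 1.8 to 58.9 for mast cell and granulocyte markers, with overlapping groups. The middle-aged pair stood apart across the transcriptome, with both libraries above all other 6 for 1481 tested genes (6.58%) and below them for 424 (1.89%).

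Muscle stem cells of every age listed a single PGE2 gene at a high level, Ptges3, and the other 9 at low levels that often fell to 0. By mean TPM over the 8 libraries the order was Ptges3 (99.6), Ptgs1 (9.25), Ptger4 (6.66), Ptger3 (4.0), Ptger1 (3.67), Ptges (2.99), Ptgs2 (2.12), Ptger2 (2.04), Hpgd (1.09) and Ptges2 (0.962). The lowest library of Ptges3 lay above the highest library of every other member. From Ptgs1 to Ptges2, neighbours in this order overlapped in their ranges over libraries. Of the 80 values, 21 were listed at 0, and only Ptges3 and Ptger4 were above 0 in all 8 libraries. A listed 0 is not absence.

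No PGE2 gene passed the test between any 2 ages. Differences were tested with limma on log2(TPM + 1) across the 22492 genes averaging 1 TPM or more, with Benjamini-Hochberg adjustment and a threshold of 0.05. The filter left 9 of the 10 genes, without Ptges2. Hpgd passed it through its middle-aged libraries alone, so its place among the tested genes is not independent of that pattern. For old minus young, 0 of the 9 passed, and 0.0% of all tested genes did. For middle-aged minus young, 0 of 9 passed against 0.00445% of all genes, which is 1 gene, Mapkapk3, a kinase outside this pathway. For old minus middle-aged, 0 of 9 passed against 0.0%. Without adjustment, a p below 0.05 was reached by 0, 2 and 3 of the 9 genes in that order, where 5.89%, 7.78% and 6.19% of all tested genes reached it.

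**Figure D1:**
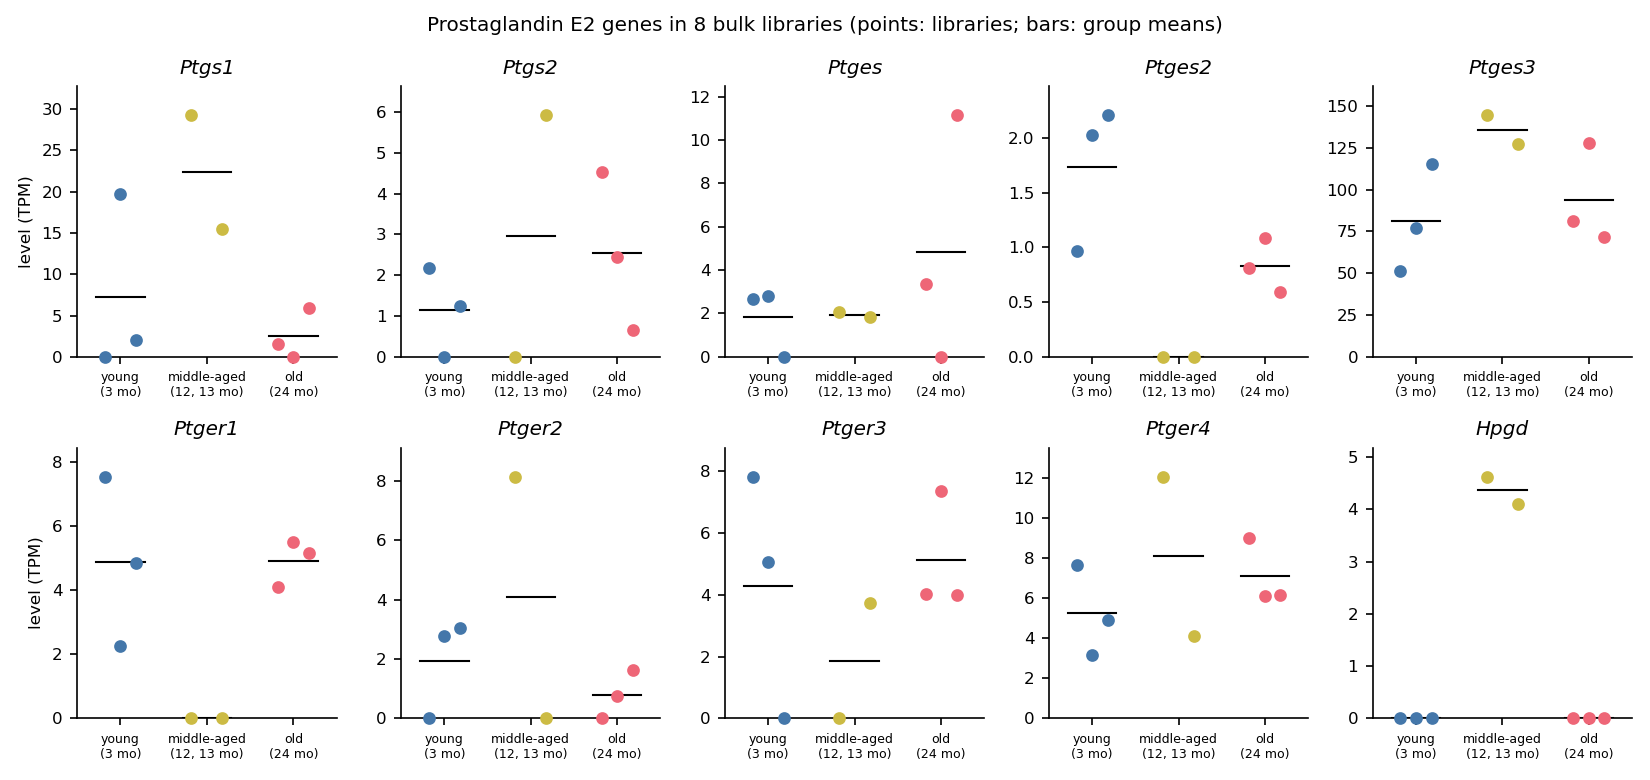
Level in TPM (linear axis from 0, scaled for each gene) of the 10 PGE2 genes in 8 bulk libraries (3 young, 2 middle-aged, 3 old); points are libraries and bars are group means. Ptges3 lies between 51.6 and 145 TPM, the other genes stay at or under 29.3 TPM, and the middle-aged pair stands apart in Ptges2, Ptger1 and Hpgd.

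Whether groups overlapped was counted as well. Exact permutation tests between old and young libraries gave p = 0.2 to 1 over the 10 genes. No PGE2 gene separated the 3 old from the 3 young libraries, where 10% of all tested genes did. Between middle-aged and young libraries, Ptges3 and Hpgd lay higher and Ptger1 lower without overlap, 3 of the 9 tested genes against 18% of all tested genes. Between old and middle-aged libraries, Ptgs1 and Hpgd lay lower and Ptger1 and Ptger3 higher without overlap, 4 of 9 against 19.9%. Hpgd is in both counts, though it passed the filter through its middle-aged libraries alone, so its part in them is not independent of the filter. Ptges2, which was not tested, lay lower in the middle-aged pair than in all other libraries. In these bulk data, fewer cells of a type and less RNA per cell cannot be told apart.

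Cyclooxygenases open the pathway. Ptgs1 encodes COX-1, the form most tissues make constantly (chromosome 2, 36230426 to 36252272, plus strand, mm10). For Ptgs1, the young libraries gave 0, 19.7 and 2.07 TPM, the middle-aged pair 29.3 and 15.5 TPM and the old ones 1.51, 0 and 5.90 TPM. Both middle-aged libraries were above all old ones, and young library 2 lay between the middle-aged values. The limma difference was -3.11 log2 units (SE 1.30, unadjusted p = 0.0369, adjusted p = 0.724) for old minus middle-aged. It was 2.49 (SE 1.30, adjusted p = 0.626) for middle-aged minus young and -0.62 (SE 1.16, adjusted p = 0.947) for old minus young. The young libraries thus spanned from 0 to above the lower middle-aged value. Middle-aged minus young was 3.67 (limma p = 0.0219, adjusted p = 0.501) without young library 2 and 1.49 (adjusted p = 0.660) without young library 1.

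Ptgs2 encodes COX-2, the form induced by injury and cytokines (chromosome 1, 150100031 to 150108227). Ptgs2 stood at 2.17, 0 and 1.24 TPM (young), 0 and 5.93 TPM (middle-aged) and 4.54, 2.44 and 0.66 TPM (old). All groups overlapped. The old minus young difference was 0.72 log2 units (SE 1.04, 95% interval -1.58 to 3.02, limma adjusted p = 0.906), and the exact permutation test gave p = 0.4. With 3 against 3 libraries that test cannot go below p = 0.1. The neighbours Ptgs2os and Ptgs2os2 are noncoding RNAs named for their place beside Ptgs2. In the middle-aged pair, Ptgs2os stood at 7.04 and 8.54 TPM, against at most 5.59 TPM elsewhere. Ptgs2os2 stood at 4.56 and 4.04 TPM there, below young library 2 (6.19 TPM) and old library 3 (10.9 TPM). Neither neighbour passed the test in any comparison.

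Summed, both cyclooxygenases reached 2.17, 19.7 and 3.31 TPM (young), 29.3 and 21.5 TPM (middle-aged) and 6.05, 2.44 and 6.56 TPM (old). The sum followed Ptgs1, which made up 0% to 100% of it. In 2 libraries COX-1 was listed at 0 and in 2 others COX-2 was, so no library listed both at 0.

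The last step to PGE2 has 3 synthases. Ptges3, also known as p23, is a co-chaperone of Hsp90 and of steroid receptors besides its synthase activity in the cytosol (chromosome 10, 128058954 to 128077272, plus strand). Ptges3 stood at 51.6, 77.1 and 115 TPM (young), 145 and 127 TPM (middle-aged) and 81.3, 128 and 72.0 TPM (old). The middle-aged pair was above all young libraries, and old library 2 reached into its range. The group means were 81.3 ± 32.1 (SD, n = 3), 135.8 ± 12.5 (SD, n = 2) and 93.8 ± 30.1 TPM (SD, n = 3). The difference was 0.23 log2 units for old minus young (SE 0.39, 95% interval -0.62 to 1.09, limma adjusted p = 0.930) and 0.80 for middle-aged minus young (SE 0.43, adjusted p = 0.626). Its mean lay at percentile 97.4 of all genes above 0 in any bulk library, and it made up 86.0% to 99.2% of the summed synthases in each library. Over the 8 libraries, the genes whose log2 levels followed it most closely were Tcp1, a subunit of the cytosolic chaperonin (Pearson r = 0.968), Eif5, a translation initiation factor (0.967), and Copb2, a coat protein of vesicles (0.967). These r values are the highest of 11777 genes over only 8 libraries and describe likeness alone. A processed copy of the gene, Ptges3-ps, exists in the annotation, and reads shared with it could not be separated here.

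Ptges encodes mPGES-1, the inducible membrane synthase that works with COX-2 (chromosome 2, 30889471 to 30929863, minus strand). For Ptges, the young libraries gave 2.68, 2.81 and 0 TPM, the middle-aged pair 2.06 and 1.83 TPM and the old ones 3.35, 0 and 11.2 TPM. The highest and a 0 value were both in the old group. The old minus young difference was 0.64 log2 units (SE 1.09, limma adjusted p = 0.935). Ptges2 encodes a second membrane synthase, mPGES-2 (chromosome 2, 32395896 to 32405772). Its young libraries gave 0.97, 2.03 and 2.21 TPM, both middle-aged ones 0 and its old ones 0.81, 1.09 and 0.59 TPM. Young library 1 lay among the old values, and the exact permutation test between old and young gave p = 0.2. Fitted without the filter on low values, old minus young was -0.56 (SE 0.73, limma adjusted p = 0.863).

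**Figure D2:**
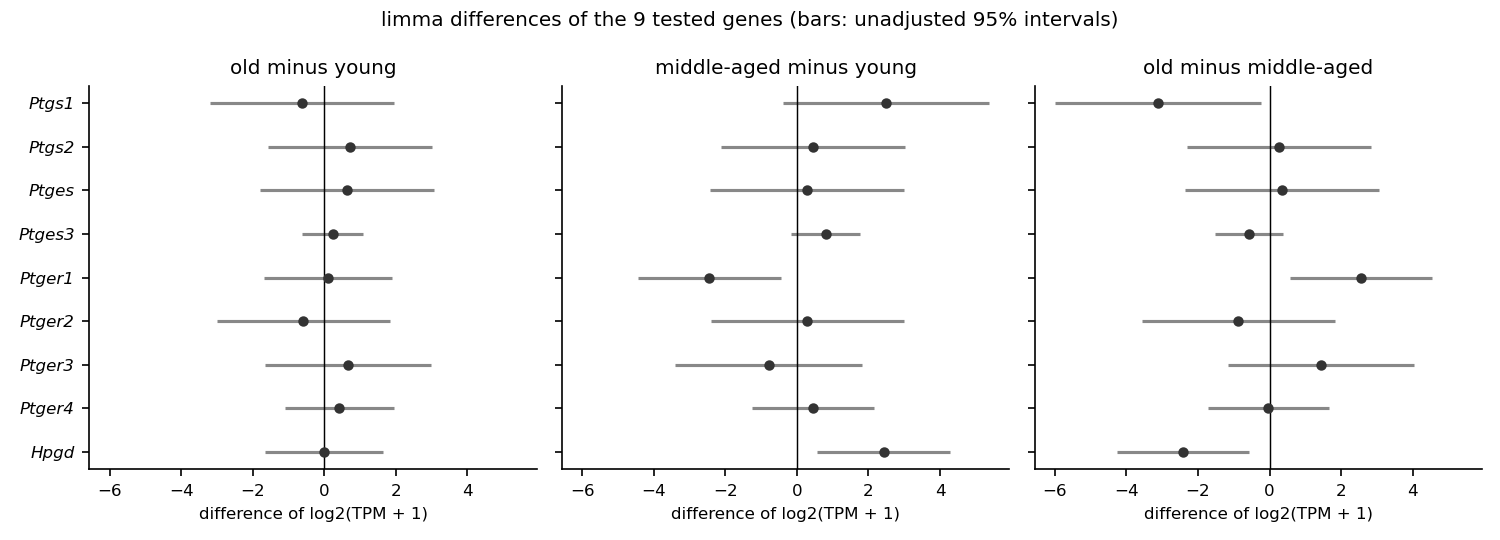
Differences of log2(TPM + 1) for the 9 tested PGE2 genes in 3 comparisons of ages (limma; points are estimates and bars are unadjusted 95% intervals). All 9 intervals of old minus young cross 0, while those of Ptger1 and Hpgd (both comparisons with the middle-aged pair) and Ptgs1 (old minus middle-aged) do not; differences against a group listed at 0 depend on the pseudocount.

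The 4 receptors differ in the signal they send. EP2 and EP4 (Ptger2, Ptger4) raise cyclic AMP, EP3 (Ptger3) mainly lowers it, and EP1 (Ptger1) raises calcium. Ptger4 was the receptor gene above 0 in all 8 libraries (chromosome 15, 5206661 to 5244187, minus strand). Ptger4 stood at 7.68, 3.16 and 4.92 TPM (young), 12.1 and 4.11 TPM (middle-aged) and 9.03, 6.10 and 6.17 TPM (old). All groups overlapped, with means of 5.25 ± 2.28 (SD, n = 3), 8.10 ± 5.64 (SD, n = 2) and 7.10 ± 1.67 TPM (SD, n = 3). Old minus young was 0.42 log2 units (SE 0.69, 95% interval -1.10 to 1.94, limma adjusted p = 0.927). Ptger4 shares its locus with Ttc33 on the opposite strand, listed at 12.1 to 49.1 TPM, and no source used here says that counting used strand. The genes most like Ptger4 over the 8 libraries were Strn4, a striatin scaffold protein (Pearson r = 0.971), Ogn, a matrix proteoglycan (0.962), and Pdzrn3 (0.952), again as a description of 8 points.

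Ptger1 set the middle-aged pair apart (chromosome 8, 83666678 to 83672753, plus strand). Its young libraries gave 7.54, 2.25 and 4.83 TPM, both middle-aged ones 0 and its old ones 4.09, 5.50 and 5.16 TPM. Young and old overlapped fully, and both middle-aged libraries lay below every other one. The limma test gave p = 0.0207 before adjustment and 0.512 after it for middle-aged minus young, and p = 0.0167 and 0.713 for old minus middle-aged. In the band of 1 to 10 TPM, 60 genes (0.404%) had this pattern of 0 in both middle-aged libraries and values in all others.

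Ptger3 stood at 7.83, 5.06 and 0 TPM (young), 0 and 3.73 TPM (middle-aged) and 4.04, 7.35 and 3.98 TPM (old) (chromosome 3, 157566892 to 157645888). All old libraries lay above both middle-aged ones by a narrow margin, and young libraries spanned the whole range. Old minus middle-aged was 1.45 log2 units (SE 1.17, limma adjusted p = 0.802). For Ptger2, the young libraries gave 0, 2.78 and 3.03 TPM, the middle-aged pair 8.15 and 0 TPM and the old ones 0, 0.74 and 1.62 TPM (chromosome 14, 44988195 to 45003820). Every group held a library at 0 and all overlapped. Old minus young was -0.58 log2 units (SE 1.09, limma adjusted p = 0.948).

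As a set, the receptors summed to 23.1, 13.2 and 12.8 TPM (young), 20.2 and 7.84 TPM (middle-aged) and 17.2, 19.7 and 16.9 TPM (old). The old sums lay close together and inside the young range. Each young and old library listed 3 or 4 of the 4 receptors above 0, and each middle-aged library listed 2. The pair of receptors that raise cyclic AMP took 33.3%, 44.8% and 62.2% of the sum in young libraries, 100% and 52.4% in middle-aged and 52.6%, 34.7% and 46% in old, so old and young shares overlapped.

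**Figure D3:**
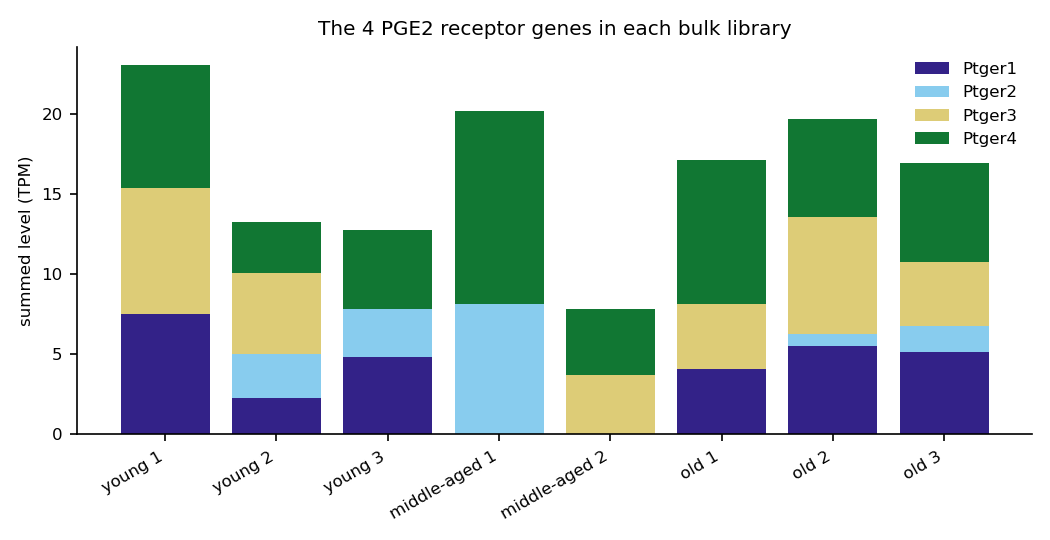
Stacked bars of the summed level in TPM of Ptger1, Ptger2, Ptger3 and Ptger4 in each of the 8 bulk libraries (linear axis from 0). Ptger4 is in every bar, Ptger1 is missing from both middle-aged bars, and the 3 old bars reach 16.9 to 19.7 TPM.

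Hpgd encodes the dehydrogenase that starts PGE2 breakdown (chromosome 8, 56294585 to 56321043, plus strand). Its value was 0 in each young and each old library, and the middle-aged pair gave 4.63 and 4.11 TPM. The middle-aged values lay close together and apart from the rest. The limma test gave p = 0.0150 for both comparisons with the middle-aged pair, with adjusted p = 0.464 against young and 0.694 against old. Without middle-aged library 1 or 2, the difference of Hpgd from young was 2.35 or 2.49 log2 units. Old minus middle-aged was then -2.35 or -2.49. The lone library is assumed to vary like the other groups, in which Hpgd was 0 throughout. Those fits are therefore not used to call it. In the band of 1 to 10 TPM, 100 genes (0.673%) shared the pattern of 0 in all young and old libraries and values in both middle-aged ones. Old and young libraries could not be told apart for Hpgd, as both were listed at 0.

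Summed macrophage and lymphocyte markers were also higher in the middle-aged libraries, where Hpgd was above 0, while other blood-cell markers were not. The 11 macrophage markers summed to 26.8 to 47 TPM (young), 125 and 90.7 TPM (middle-aged) and 28.4 to 59.6 TPM (old). Most of this was Lyz2, at 78.7 and 58.2 TPM in the middle-aged pair and at most 52.2 TPM elsewhere. Csf1r, at 4.74 and 3.43 TPM, was the other marker of the 11 that lay above all other libraries there. Cd68 overlapped between groups, and Ptprc, a marker of all leukocytes, was lower in the middle-aged pair (4.79 and 4.25 TPM) than in the young libraries (5.38 to 25.6 TPM). C1qa and Tyrobp, 2 defining markers of macrophages, were listed at 0 in all 8 libraries. The 7 lymphocyte markers summed to 4.2 to 27 TPM (young), 63.2 and 33.7 TPM (middle-aged) and 4.8 to 13 TPM (old). Nkg7 was at 0 throughout. The 8 markers of platelets and red blood cells summed to 81.4 and 0 TPM in the middle-aged pair and 19.5 to 84.4 TPM elsewhere, with Pf4, Ppbp and Gp9 at 0 in all 8 libraries. Endothelial markers summed to 28.4 to 45.8, 49.4 to 91.6 and 43.4 to 68.0 TPM in the 3 ages, with Cldn5, Egfl7 and Tie1 at 0. The part of such cells in the levels of Ptgs1 and Hpgd was not tested.

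**Figure D4:**
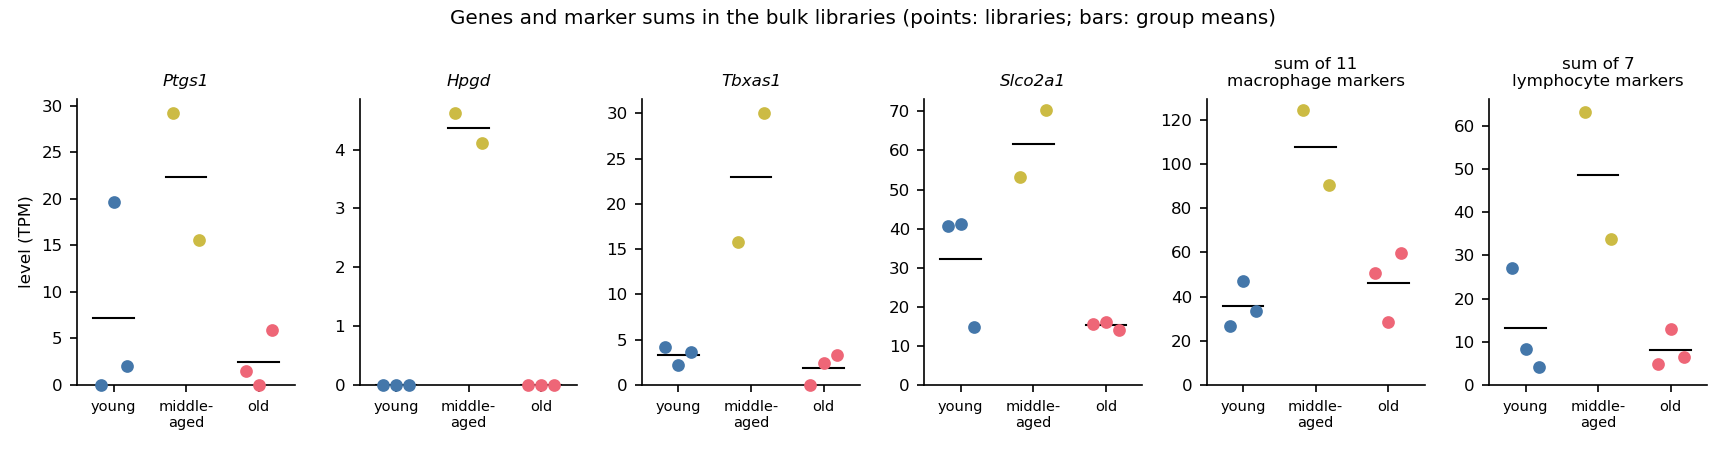
Level in TPM (linear axes from 0, scaled for each panel) of Ptgs1, Hpgd, Tbxas1 and Slco2a1 and the summed TPM of 11 macrophage and 7 lymphocyte markers in 8 bulk libraries; points are libraries and bars are group means. In each panel but that of Ptgs1, where young library 2 lies between them, both middle-aged libraries lie above the other 6. The panels are a selection with high middle-aged levels. Zadh2, Cbr1, Akr1b3 and Ptgr2, of the same lists as Tbxas1 and Slco2a1, lack this pattern and are not shown. It was found in 6.58% of all tested genes.

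The rest of the pathway was described with 8 lists of genes. No gene of any list passed the limma test in any comparison. For old minus young, the median over all tested genes was 0.00 log2 units. The medians of the lists were 0.57 for release of arachidonic acid (18 genes tested, 11 higher and 7 lower), -0.34 for the other prostanoid synthases (6 tested, 2 and 4) and -0.27 for the other prostanoid receptors (5 tested, 1 and 4). They were -0.48 for transport and further breakdown (6 tested, 2 and 4), -0.05 for the lipoxygenase branch (7 tested, 3 and 4) and 0.40 for the G proteins, cyclases and kinases behind the receptors (25 tested, 18 and 7). They were -0.06 for targets of cyclic AMP and CREB (16 tested, 6 and 10) and -0.08 for the glucocorticoid receptor and cyclooxygenase inducers (8 tested, 4 and 4). The 9 PGE2 genes had a median of 0.23, with 6 higher and 2 lower.

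For middle-aged minus young, the median of all genes was 0.18 log2 units. The lipoxygenase branch had a median of 2.17 (6 of 7 higher), which was the value of Alox5. With the mean at 5 TPM or more, 3 genes of that branch were tested, 2 higher and 1 lower. Arachidonic acid release had 0.74 (12 of 18 higher). Transport and breakdown had 0.68 (5 of 6 higher) and the PGE2 genes 0.45 (7 of 9 higher). The remaining lists lay between -0.44, for the other receptors, and 0.48, for the G proteins, cyclases and kinases. For old minus middle-aged, the median of all genes was -0.09. It was -1.21 for the lipoxygenase branch (7 of 7 lower) and -0.50 for transport and breakdown (4 of 6 lower). It was -0.49 for the glucocorticoid receptor and cyclooxygenase inducers (7 of 8 lower) and -0.15 for arachidonic acid release (11 of 18 lower). The PGE2 genes had -0.03 (4 higher and 5 lower). The remaining lists lay between -0.13, for targets of cyclic AMP and CREB, and 0.17, for the other receptors. Both comparisons share the middle-aged libraries, and low genes such as Hpgd could pass the filter through these libraries alone.

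Upstream of the cyclooxygenases, Anxa1, an inhibitor of phospholipase A2 that glucocorticoids induce, stood at 49.6, 56.2 and 110 TPM (young), 229 and 186 TPM (middle-aged) and 98.8, 200 and 128 TPM (old). Old library 2 lay within the middle-aged range and all other libraries below it, and middle-aged minus young was 1.60 log2 units (limma adjusted p = 0.384). Plaa (mean of 95.1 TPM over 8 libraries) and Pla2g12a (9.24 TPM) were the next most abundant of that list.

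Among the enzymes of other prostanoids, Tbxas1, thromboxane synthase, was higher in both middle-aged libraries than in the other 6. Tbxas1 stood at 4.24, 2.22 and 3.63 TPM (young), 15.8 and 30.1 TPM (middle-aged) and 0, 2.38 and 3.37 TPM (old). Old minus middle-aged was -3.22 log2 units (limma adjusted p = 0.589). Aloxe3, an epidermal lipoxygenase, reached 24.6 and 29.6 TPM in the middle-aged pair and at most 2.67 TPM elsewhere, with an adjusted p of 0.341 for middle-aged minus young. Alox5, the enzyme that starts leukotriene synthesis, reached 28.4 TPM in middle-aged library 1 and 16.9 TPM in young library 1 and 3.73 TPM or less in the others. Akr1b3, an aldose reductase that can make prostaglandin F2α, ranged from 67.8 to 195 TPM with all groups overlapping. Cbr1, a carbonyl reductase that acts on PGE2, had 6.73 and 5.98 TPM in the middle-aged pair, below the young values of 8.82 to 18.3 TPM and inside the old range of 0 to 26.8 TPM. Lta4h, an enzyme of leukotriene synthesis, had 7.56 and 6.71 TPM in that pair, inside the young range of 5.15 to 9.86 TPM.

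Slco2a1, the prostaglandin transporter that takes up PGE2 for breakdown, was far above Hpgd in every library. For Slco2a1, the young libraries gave 40.8, 41.1 and 14.8 TPM, the middle-aged pair 53.1 and 70.4 TPM and the old ones 15.6, 16.2 and 14.1 TPM. Young library 3 lay with the old group and the other young libraries well above it. Old minus middle-aged was -1.93 log2 units (limma adjusted p = 0.574) and old minus young -0.90 (adjusted p = 0.839). Of the enzymes that act after Hpgd, Ptgr2 ranged from 5.23 to 29.5 TPM. Zadh2 went the other way from Slco2a1 in the middle-aged pair, at 4.55 and 2.02 TPM against 6.20 to 16.3 TPM (young) and 4.94 to 15.3 TPM (old), with a difference of -1.62 log2 units from young (limma p = 0.0591, adjusted p = 0.626).

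The receptors for other prostanoids were low. Ptgfrn, a membrane protein that binds the prostaglandin F receptor and other partners and is not itself a prostanoid receptor, was listed at 18.8 to 53.1 TPM. Ptgfr, that receptor, was listed at 1.20 to 6.05 TPM, and Ptgir, the prostacyclin receptor, at 0 to 9.21 TPM. Behind the receptors, Gnas, the G protein through which EP2 and EP4 act, was listed at 292 to 1454 TPM. Prkar1a, a regulatory subunit of protein kinase A, was at 149 to 296 TPM. Gnai2, an inhibitory G protein of the kind EP3 uses, stood at 71.2, 14.3 and 42.8 TPM (young) and 108, 98.7 and 136 TPM (old), without overlap (1.65 log2 units, limma adjusted p = 0.728).

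Genes that cyclic AMP can switch on were abundant at every age, though many other signals induce them as well. Fos was listed at 781 to 1498 TPM, Dusp1 at 591 to 1010 TPM and Fosb at 459 to 1235 TPM. Egr1, a factor that can induce Ptges, was at 4318 to 6151 TPM. Nfkb1, a subunit of the NF-kB factor that induces Ptgs2, was at 26.4 to 82.8 TPM. Tsc22d3, a glucocorticoid target, stood at 52.5, 78.3 and 56 TPM (young), 17.7 and 27.5 TPM (middle-aged) and 43.8, 20.1 and 22.9 TPM (old), with adjusted p = 0.469 or more in limma.

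In single-cell wells, Ptges3 was again the 1 PGE2 gene found widely. Wells of the 2 ages differed in how much was found in them, with a median of 1854 genes at 1 TPM or more in the young mouse (range 7 to 3621) and 64 in the old (range 3 to 2950). An index code in the well names also splits exactly by age, so mouse, age and that code cannot be told apart. Shares are given without a test, with exact Clopper-Pearson 95% intervals that cover counting error only. Ptges3 was at 1 TPM or more in 52 of 64 young wells (81.2%, 69.5 to 89.9) and in 9 of 31 old wells (29%, 14.2 to 48). Among wells with at least 1000 genes it was found in 51 of 54 young wells (94.4%, 84.6 to 98.8) and in all 7 old wells (100%, 59 to 100). Among shallower wells it was found in 1 of 10 young and 2 of 24 old wells. The intervals are not compared between ages, as each age had 1 mouse and the depth of wells differed. Under 1000 genes were found in 10 of 64 young and 24 of 31 old wells.

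In those deeper wells, Ptges3 had a median of 420 TPM in the young mouse (quartiles 166 and 661) and 220 TPM in the old (quartiles 69.9 and 386), and the quartile ranges overlapped. Its level followed the number of genes found, with Spearman rho of 0.542 over 54 young wells and 0.714 over 7 old wells, values that share depth and mouse and are given as a description. The tables of wells and bulk libraries were normalized separately, and their TPM were not compared.

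**Figure D5:**
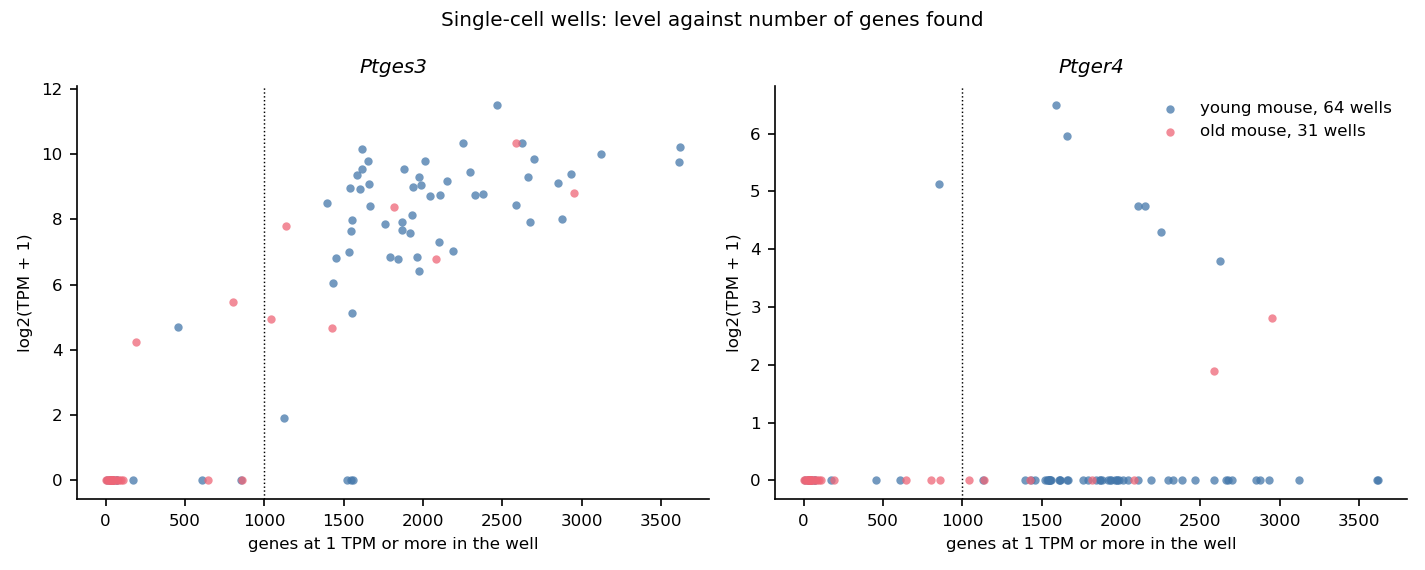
Ptges3 (left) and Ptger4 (right) as log2(TPM + 1) against the number of genes at 1 TPM or more in each of 64 young and 31 old wells; the dotted line stands at 1000 genes. Ptges3 is above 0 in 51 of 54 young and all 7 old wells right of the line, and Ptger4 in 6 and 2 of them.

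Ptger4 was the only EP receptor found in young wells, in 7 of 64 (10.9%, 4.51 to 21.2), at 12.9 to 89.5 TPM. It was found in 2 of 31 old wells (6.45%, 0.79 to 21.4), at 2.71 and 6.04 TPM. With 1 mouse per age, these shares do not compare ages. The 9 wells with Ptger4 each held 3 to 9 of the 10 muscle stem cell markers, and 1 of them held a macrophage marker. Fibroblast markers were present in 8 of these wells (at most 2 of 10), smooth muscle and pericyte markers in 7 (at most 3 of 8), endothelial markers in 2 and a Schwann cell marker in 1. Among all 54 deeper young wells, 45 held a fibroblast marker and 40 a smooth muscle or pericyte marker. Ptger1 was found in 2 old wells, at 5.95 and 1.25 TPM, and the first of these was also a Ptger4 well. Ptges2 was found in 2 young wells, at 4.81 and 5.69 TPM.

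Ptgs1, Ptgs2, Ptges, Ptger2, Ptger3 and Hpgd were found in 0 of 64 young and 0 of 31 old wells, which allows shares of up to 4.69% and 9.68% of wells by a limit of 3 wells. The upper ends of the exact intervals are 5.60% and 11.2%, and most old wells were nearly empty: over the 7 deeper old wells the limit of 3 wells is 42.9%. Slco2a1 was found in 3 and Tbxas1 in 0 of the 54 deeper young wells, and neither was found in the 7 deeper old wells. Of the receptor signal, Gnas was found in 46 of the 54 and 7 of the 7 deeper wells, Prkar1a in 37 and 4 and Gnai2 in 23 and 2. Most adenylyl cyclases of that list were found in no deeper well. Fos, which many other signals induce as well, was found in 44 and 5. Egr1, from the list of cyclooxygenase inducers, was found in 53 and 7. Macrophage markers were found in 2 of the 54 deeper young wells, 1 marker each, and in 0 of the 7 old wells. No middle-aged mouse was among the wells, so its Ptgs1 and Hpgd levels have no counterpart there.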

How the data were processed

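The deposited values are TPM in 2 tables, per the labels. The submitters' processing notes name STAR and mm10; the STAR version, annotation, strand setting and quantification tool are, in the sources used here, not given. Bulk column totals lay at 999999.2 to 1000000.9. Reads were 75 bases long, per the labels. TPM keep no depth, so no counting error was computed for bulk values, whose precision rests on 2 or 3 libraries a group. Entries with an Ensembl ID were kept (43283 of 45798 in bulk; 92 others were spike-ins). Gene positions came from GENCODE vM21 (mm10) and promoters from RefSeq.

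Groups came from the labels, whose design text names separate mice for the bulk libraries. The 3 age groups were fitted together with limma 3.58.1 (R 4.3.3) on log2(TPM + 1), for genes whose mean TPM was 1 or more, with a variance trend, two-sided tests and Benjamini-Hochberg adjustment over all tested genes (threshold 0.05). A fold on this scale understates the change of low genes. Old against young was also tested with exact two-sided permutation tests. Limma was tested on simulated normal noise for old minus young (22492 genes). It called 0.2%, 6%, 30.8% and 47.6% of genes changed by 1, 2, 3 and 4 log2 units, with 22 false among 445 calls. The changed genes were drawn only from those averaging about 5 TPM or more on the log2(TPM + 1) scale. The rates do not cover lower genes, among them most PGE2 genes. Same-numbered libraries were not paired: their deviations correlated at r = -0.012 to 0.005. Wells (1 mouse per age) were described without a test; at 0 wells the upper limit is 3 wells. Alternatives covered the pseudocount, the filter, removal of mitochondrial genes and spike-ins, a replicate block, array weights, young and old libraries alone, and each library left out.

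The members and lists were chosen with earlier results of these data known. Named genes are the 10 members, the 3 most abundant genes of each list, any gene past the threshold and, for Ptges3 and Ptger4, the 3 genes of highest Pearson r among genes whose mean TPM was 5 or more; marker lists are given as sums. Genes that overlap or adjoin a member are named for their position. Other software was scipy 1.17.1, numpy 2.4.6, matplotlib 3.10.9 and pandas 2.3.3 under Python 3.11.15.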

Additional observations from a re-analysis of the deposited data

How the results depend on the processing

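Old minus young gave 0 called genes under every alternative run, each over the genes its own filter left (11778 to 27017), so no PGE2 gene passed there. With the mean at 5 TPM or more, 3 PGE2 genes were tested. For middle-aged minus young, the 1 called gene became 7 with a pseudocount of 0.1 and 2 when the mean had to reach 5 TPM. It became 0 with a pseudocount of 5, with no filter, after rescaling without mitochondrial genes and spike-ins, with a replicate block and with array weights. Leaving out a library gave 0 to 859 calls, 600 without middle-aged library 1 and 859 without middle-aged library 2, where the lone library is assumed to vary like the others. For old minus middle-aged, the 0 calls became 6 with a pseudocount of 0.1 and 0 to 792 when a library was left out (580 and 792 without the same libraries). Hpgd passed only in those fits. The replicate block changed the call of no PGE2 gene.

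Of 179 other refits of PGE2 differences, 5 changed sign, none of them called: Ptger2 for middle-aged minus young (-0.09) and Ptges for old minus middle-aged (-0.38) with a pseudocount of 0.1, Ptgs2 for old minus middle-aged with a pseudocount of 5 (-0.0027), and Ptger4 for old minus middle-aged when rescaled (0.03) and with the replicate block (0.01). Of 216 refits without 1 library, 21 changed sign. Only Hpgd passed, in the fits with a lone middle-aged library, where its other groups were 0 throughout. The ranges of log2 differences without 1 library that crossed 0 were, for old minus young, Ptgs1 -1.62 to 0.56, Ptges -0.21 to 1.59, Ptges3 -0.05 to 0.52, Ptger1 -0.26 to 0.44 and Ptger3 -0.30 to 1.27. For middle-aged minus young they were Ptgs2 -0.94 to 1.85, Ptges -0.35 to 0.62, Ptger2 -1.31 to 1.88, Ptger3 -1.91 to 0.33 and Ptger4 -0.23 to 1.13. For old minus middle-aged they were Ptgs2 -1.13 to 1.66, Ptges -0.50 to 1.31, Ptger2 -2.46 to 0.73 and Ptger4 -0.71 to 0.65. The ranges that kept their sign were, for old minus young, Ptgs2 0.25 to 1.18, Ptger2 -1.24 to -0.22 and Ptger4 0.16 to 0.69. For middle-aged minus young they were Ptgs1 1.49 to 3.67, Ptges3 0.52 to 1.09, Ptger1 -2.82 to -2.12 and Hpgd 2.35 to 2.49. For old minus middle-aged they were Ptgs1 -3.82 to -2.43, Ptges3 -0.82 to -0.41, Ptger1 2.49 to 2.66, Ptger3 0.33 to 2.57 and Hpgd -2.49 to -2.35. The cause was not tested. In wells with at least 1000 genes, Ptges3 was found in 94.4% of young and 100% of old wells. Ptger4 was found there in 11.1% of young wells and in 2 of 7 old wells (28.6%, 3.67 to 71.0). Ptger1 was found there in 0% of young wells and in the same share of old wells as Ptger4. At 10 TPM or more over all wells, Ptger4 was found in 10.9% of young and 0% of old wells.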
